A study of Mus musculus with 4 samples.

Results

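Fos, Fosb, Jun, Junb, Egr1, Egr3, Arc, Nr4a1, Npas4 and Bdnf are genes whose transcription follows neuronal activity, and they were examined here in the postnatal retina of mice with a toxin in the melanopsin gene. The 10 genes were chosen by name as 9 immediate early genes and the activity-regulated neurotrophin gene Bdnf. All 10 were found among the 23336 genes of the deposited table, and all 10 passed the filter on low values that left 15003 genes. RNA had been sequenced from whole retinas at postnatal day 8 on the C57/Bl6 background. Opn4-DTA/DTA mice (2 libraries) carry the diphtheria toxin A chain in both copies of Opn4, the gene of the photopigment melanopsin, and were set against wild-type littermates (WT, 2 libraries). The toxin kills cells that make it, so loss of melanopsin and loss of the ganglion cells that express it cannot be told apart in this design. The labels call the tissue dissociated retinal cells, while the design text speaks of whole retinal extracts. They give neither the lighting nor the hour at which the retinas were taken, and whether a group's libraries are from different animals is not stated. The p-values therefore measure only the spread between these libraries, which may be technical.

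Immediate early genes are transcribed within minutes of calcium entry or growth factor signalling, without new protein synthesis, from transcription factors such as CREB and SRF that are already bound at their promoters. Most encode transcription factors: FOS and JUN proteins pair as AP-1, EGR proteins are zinc finger factors, NR4A1 is an orphan nuclear receptor and NPAS4 is a neuron-specific factor that responds to calcium. In the neonatal retina, activity comes from spontaneous waves that spread among ganglion and amacrine cells and, before rods and cones drive vision, from the light response of melanopsin ganglion cells. Light induces Fos in such ganglion cells. Cutting and dissociating tissue also induces these genes.

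Every value below is a normalized count, which is the whole count of a gene in a library divided by the size factor of that library. The authors deposited group means, from which the counts of the individual libraries were recovered. Total counts were 60833968 and 32032295 in the Opn4-DTA/DTA libraries and 28726275 and 22202382 in the WT libraries. Every Opn4-DTA/DTA library was thus deeper than every WT library, so effects of depth and of genotype cannot be told apart. Within each group, a names the deeper library and b the shallower, because recovered libraries carry no sample label. Opn4 itself had counts of 1 and 0 in the Opn4-DTA/DTA libraries, against 369 and 161 in the WT libraries, which fits the labels. The retinal markers Pax6 and Tfap2b were detected and tested. In whole tissue, fewer cells of a type and less RNA per cell cannot be told apart.

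Promoter windows of RefSeq (build GRCm38.p6, 250 bases before to 50 bases after an annotated start) were found for 7 of the 10 genes, as 13 windows of which 7 belong to the alternative starts of Bdnf. The windows of 4 genes are shown because they hold letters that match the cAMP response element core marked below, whose function here was not tested. They were also picked because their log2 fold changes, given below, differ in sign, although none of the 4 passed the test. A link between the elements and the fold changes was not tested. Capitals mark the core of the cAMP response element that CREB binds (TGACG, read CGTCA on the other strand) and the EGR element (GCGNGGGCG, either strand). Each window runs 5′ to 3′ on the strand of its gene.
Fos, chr12:85473640-85473939, plus strand: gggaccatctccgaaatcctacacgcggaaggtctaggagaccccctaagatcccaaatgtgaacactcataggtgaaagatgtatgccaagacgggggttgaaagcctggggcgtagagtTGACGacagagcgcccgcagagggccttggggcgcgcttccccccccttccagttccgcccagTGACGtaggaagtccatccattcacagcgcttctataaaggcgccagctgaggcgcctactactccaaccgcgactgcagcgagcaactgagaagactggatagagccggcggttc
Fosb, chr7:19309996-19310295, minus strand: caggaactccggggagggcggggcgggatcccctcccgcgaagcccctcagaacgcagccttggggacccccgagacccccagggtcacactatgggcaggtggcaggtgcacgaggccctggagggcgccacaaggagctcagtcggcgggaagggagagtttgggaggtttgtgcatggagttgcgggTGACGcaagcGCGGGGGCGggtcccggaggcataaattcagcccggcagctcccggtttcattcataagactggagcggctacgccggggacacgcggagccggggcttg
Nr4a1, chr15:101266596-101266895, plus strand: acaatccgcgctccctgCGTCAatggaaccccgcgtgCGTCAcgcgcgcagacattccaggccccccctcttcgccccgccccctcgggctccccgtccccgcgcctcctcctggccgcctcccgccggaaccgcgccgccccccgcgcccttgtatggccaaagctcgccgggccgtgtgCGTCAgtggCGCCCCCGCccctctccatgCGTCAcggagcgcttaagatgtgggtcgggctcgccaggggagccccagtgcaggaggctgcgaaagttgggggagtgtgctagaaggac
Npas4, chr19:4989922-4990221, minus strand: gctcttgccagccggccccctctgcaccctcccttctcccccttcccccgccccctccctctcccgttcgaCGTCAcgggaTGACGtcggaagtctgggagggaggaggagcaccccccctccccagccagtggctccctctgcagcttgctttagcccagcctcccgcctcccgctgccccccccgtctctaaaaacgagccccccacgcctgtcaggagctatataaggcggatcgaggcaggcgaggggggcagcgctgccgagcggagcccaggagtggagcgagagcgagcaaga

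The TGACG core was present at least once in 6 of the 7 genes matched, all but Jun, whereas 20.8% of all 32851 promoter windows of the table held it on either strand. Bdnf has more windows than the other genes and so had more chances of a match, and 6 of the 13 windows held the core. Nr4a1 had 4 cores, 40, 69, 213 and 233 bases upstream of the start. The Fos window had cores 66 and 129 bases upstream and a TATA box (TATAAA) 33 bases upstream. In Fosb the core lay 60 bases upstream, beside an EGR element 50 bases upstream. Npas4 had cores on opposite strands 169 and 179 bases upstream. The EGR element was found in 2 of the 7 genes, Fosb and Nr4a1, and in 5.55% of all windows. No member window held the full element TGACGTCA (1.79% of all windows, each of which also holds the core), the NR4A element AAAGGTCA (1.51%) or the CArG box of SRF (1.63%). The windows reach only 250 bases upstream, so elements farther out were not searched. Egr1, Egr3 and Arc had no window, so these genes may hold such elements unseen. The AP-1 element TGANTCA was found in 1 window of Bdnf (7.81% of all windows), and TATAAA in the windows of Fos and Junb (13.6%). A match describes these letters only.

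None of the 10 genes passed the test between Opn4-DTA/DTA and WT retinas, which does not show that their levels are equal. With limma on log2(normalized count + 1), adjusted over all genes tested, 0 of the 10 passed an adjusted p of 0.05, where 3 of 15003 genes (0.02%) passed. Limma voom on the recovered counts also called 0 of the 10 (and likewise 0.02% of all genes), as did the authors' deposited table, in which 17 genes (0.113%) pass. At an unadjusted p under 0.05 limma and limma voom each had 1 of the 10, Fosb, where limma had 1.66% and limma voom 1.8% of all genes tested. The authors' deposited table also had 1, but a different gene, Jun, where 2.2% of all genes were under 0.05. The log2 fold change was above 0 for 4 genes and below 0 for 6, with a median of -0.02, beside a median of -9.5e-05 over all genes tested. The largest differences belonged to Fosb and Npas4, both of low counts. Without WT library a or b the count over all genes was 306 or 237, and without Opn4-DTA/DTA library a or b it was 10 or 19, while 0 of the 10 members passed in each case. With 2 against 2 libraries an exact permutation test cannot give a two-sided p below 0.333.

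**Figure D1:**
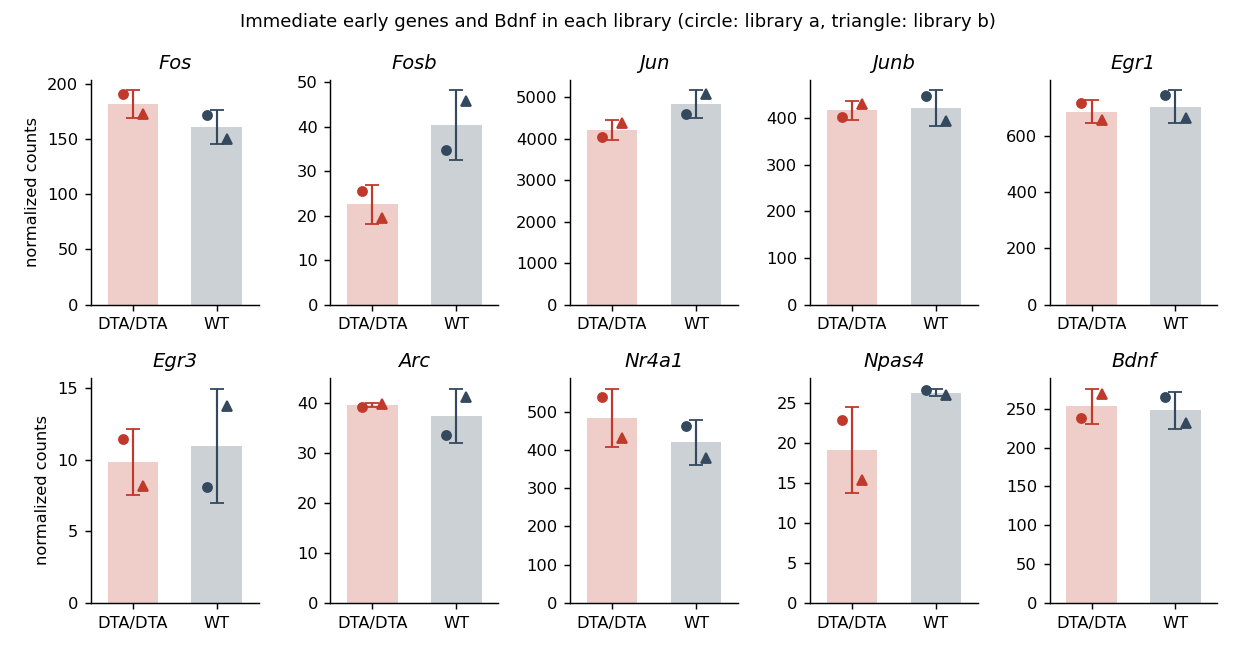
Normalized counts of the 10 genes in each library; each panel has Opn4-DTA/DTA on the left and WT on the right, with the mean as a bar and the SD (n = 2) as its error bar. The points of Fosb, Jun and Npas4 lie lower in Opn4-DTA/DTA without overlap, those of Fos lie higher without overlap, and those of the other 6 genes overlap.

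The libraries of the groups did not overlap for 4 of the 10 genes, 1 higher and 3 lower in Opn4-DTA/DTA. Over all genes tested, 23.5% did not overlap, 11.2% higher and 12.3% lower.

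Fos, the most widely used marker of recently active neurons, stood at 190.5 and 173 normalized counts in Opn4-DTA/DTA, against 172 and 150.0 in WT, with library a given before b here and below. Every Opn4-DTA/DTA value lay above every WT value, but by as little as 1.18 normalized counts between the nearest libraries. The means were 182 ± 12.5 in Opn4-DTA/DTA and 161 ± 15.4 in WT (SD, n = 2 each), a log2 fold change of 0.18 ± 0.18 (SE; adjusted p = 0.9997 by limma). Its 95% interval ran from -0.24 to 0.59, or from 0.847-fold to 1.51-fold. Fos is a protein-coding gene at chr12:85473901-85477270 (mm10, plus strand).

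Fosb encodes a FOS relative that also partners JUN proteins. It had 25.7 and 19.4 normalized counts in Opn4-DTA/DTA, against 34.8 and 45.9 in WT, on whole counts of 47 and 19 in Opn4-DTA/DTA and 30 and 30 in WT. Both Opn4-DTA/DTA libraries lay below both WT libraries. Counting error alone is wide at this level: the exact Poisson 95% intervals were 18.9 to 34.1 and 11.7 to 30.4 normalized counts in Opn4-DTA/DTA, and 23.5 to 49.7 and 31.0 to 65.5 in WT. The mean of 22.6 ± 4.40 in Opn4-DTA/DTA against 40.4 ± 7.85 in WT (SD, n = 2 each) gave a log2 fold change of -0.81 ± 0.33 (SE; adjusted p = 0.9997 by limma). The 95% interval of that log2 fold change was -1.58 to -0.04, before any adjustment for the number of genes tested. Fosb ranked 201 of the 15003 genes by p. The gene lies at chr7:19302696-19310045 on the minus strand.

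Jun, the main partner of FOS in AP-1 and also a gene of stress and axon injury signalling in ganglion cells, was the most abundant of the 10. It stood at 4042 and 4384 normalized counts in Opn4-DTA/DTA, against 4591 and 5063 in WT. All 4 libraries were thus ordered by genotype, with the Opn4-DTA/DTA libraries lower. The means of 4213 ± 242 in Opn4-DTA/DTA and 4827 ± 334 in WT (SD, n = 2 each) differed by a log2 fold change of -0.20 ± 0.10 (SE; adjusted p = 0.9997 by limma), with a 95% interval from -0.43 to 0.03. In the authors' deposited table Jun had an unadjusted p of 0.0349 and an adjusted p of 0.9997. An antisense gene, Junos, overlaps Jun at chr4:95049036-95052222 (minus strand). The libraries were directional, but whether strand was used in counting is not given in the sources used here, so reads of the antisense gene may be included.

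Junb encodes a JUN relative that often restrains JUN. It had 402 and 431 normalized counts in Opn4-DTA/DTA, against 448 and 393 in WT, so that the WT libraries enclosed both Opn4-DTA/DTA libraries. The log2 fold change was -0.01 ± 0.14 (SE; adjusted p = 0.9997 by limma), and its 95% interval from -0.34 to 0.32 leaves room for a change of up to 1.24-fold upward or to 0.791-fold. With scaling by library totals its sign turned to 0.017. Junb lies at chr8:84976909-84978748 on the minus strand.

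Egr1, a zinc finger factor induced by light and synaptic input and known from chick retina for its response in amacrine cells, had 715 and 656 normalized counts in Opn4-DTA/DTA, against 744 and 663 in WT. In each genotype library a was the higher, and the groups overlapped. Its log2 fold change was -0.04 ± 0.13 (SE; adjusted p = 0.9997 by limma), with a 95% interval from -0.33 to 0.26. Egr1 lies at chr18:34861207-34864956 on the plus strand. Egr3, a related factor, was near the limit of the filter, with whole counts of 21 and 8 in Opn4-DTA/DTA and 7 and 9 in WT. These correspond to 11.5 and 8.19 normalized counts in Opn4-DTA/DTA, against 8.12 and 13.8 in WT. The exact Poisson intervals of all 4 libraries overlapped, from 3.27 to 26.1 normalized counts in all, and the 95% interval of the fold change, 0.424-fold to 2.004-fold, does not exclude a 2-fold change in either direction. Egr3 lies at chr14:70077445-70080157 on the plus strand.

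Nr4a1 had 537 and 430 normalized counts in Opn4-DTA/DTA, against 462 and 378 in WT. The mean was higher in Opn4-DTA/DTA, at 483 ± 76.0, than in WT, at 420 ± 59.3 (SD, n = 2 each), but the groups overlapped. The log2 fold change was 0.20 ± 0.17 (SE; adjusted p = 0.9997 by limma), with a 95% interval from -0.19 to 0.60, and the gene lies at chr15:101266846-101274794 on the plus strand. Npas4 had 22.9 and 15.3 normalized counts in Opn4-DTA/DTA, against 26.7 and 26.0 in WT, on whole counts of 42 and 15 in Opn4-DTA/DTA and 23 and 17 in WT. Both WT libraries were higher, yet the Poisson 95% interval of Opn4-DTA/DTA library a, 16.5 to 31.0 normalized counts, covers both WT values. That of Opn4-DTA/DTA library b, 8.59 to 25.3, covers neither. The intervals of the WT libraries, 16.9 to 40.0 and 15.2 to 41.7, overlap both. The log2 fold change of Npas4, -0.47 ± 0.36 (SE; adjusted p = 0.9997 by limma), had a 95% interval from -1.30 to 0.37. Npas4 lies at chr19:4984355-4989971 on the minus strand.

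Arc, whose product acts at synapses to remove AMPA receptors rather than as a transcription factor, had 39.3 and 39.9 normalized counts in Opn4-DTA/DTA, against 33.7 and 41.3 in WT. The WT libraries again enclosed the Opn4-DTA/DTA libraries. The log2 fold change was 0.08 ± 0.28 (SE; adjusted p = 0.9997 by limma), with a 95% interval from -0.57 to 0.74. Arc lies at chr15:74669081-74672570 on the minus strand.

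Bdnf encodes brain-derived neurotrophic factor, a survival and synaptic growth factor for ganglion cells among other neurons. It had 237 and 269 normalized counts in Opn4-DTA/DTA, against 265 and 231 in WT, with means of 253 ± 22.4 in Opn4-DTA/DTA and 248 ± 23.7 in WT (SD, n = 2 each). The groups overlapped, and the log2 fold change was 0.03 ± 0.16 (SE; adjusted p = 0.9997 by limma), with a 95% interval from -0.35 to 0.41. The counts cover the whole gene at chr2:109674700-109727043 (plus strand), so transcripts from its alternative promoters, which answer to activity to different degrees, are summed. An antisense gene, Gm45346, overlaps it.

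**Figure D2:**
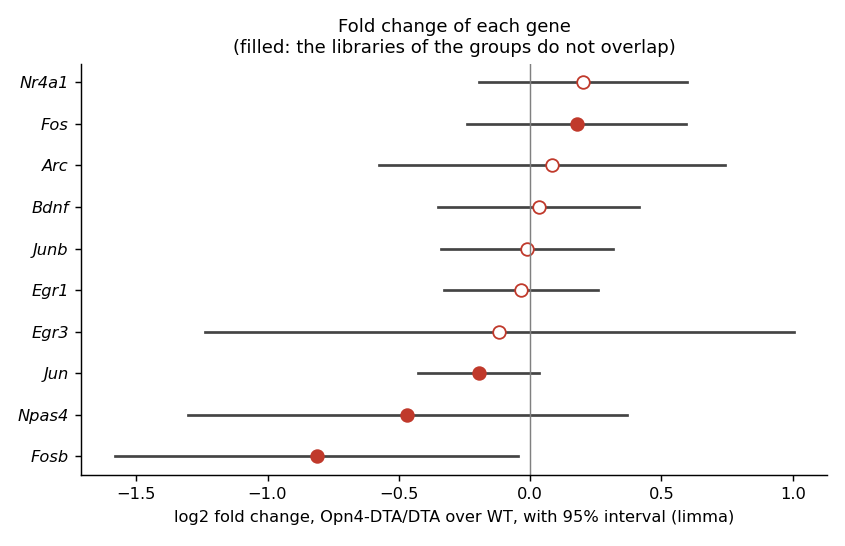
Log2 fold change of Opn4-DTA/DTA over WT for each gene (x axis) with its 95% interval from limma; filled points mark genes whose libraries do not overlap between the groups. The interval of Fosb, from -1.58 to -0.04, is the one that does not reach 0, and the intervals are widest for Egr3, Npas4 and Fosb.

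For 8 of the 10 genes the difference between the libraries of at least 1 genotype was larger than the difference between genotypes, and the exceptions were Fosb and Jun. The same count was not made over all genes tested, so it does not set these genes apart. A difference between single libraries also varies more than a difference between group means. The size of the log2 difference between library a and library b had a median over the 10 genes of 0.16 in Opn4-DTA/DTA and 0.19 in WT. The size of the log2 fold change between genotypes had a median of 0.15. Over all genes tested the same medians were 0.09 for libraries within Opn4-DTA/DTA, 0.20 within WT and 0.07 between genotypes. Within WT, Egr3 moved most, with a log2 difference of library a over library b of -0.70, and Fosb followed at -0.39. Within Opn4-DTA/DTA, Npas4 moved most at 0.55, ahead of Egr3 at 0.44.

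**Figure D3:**
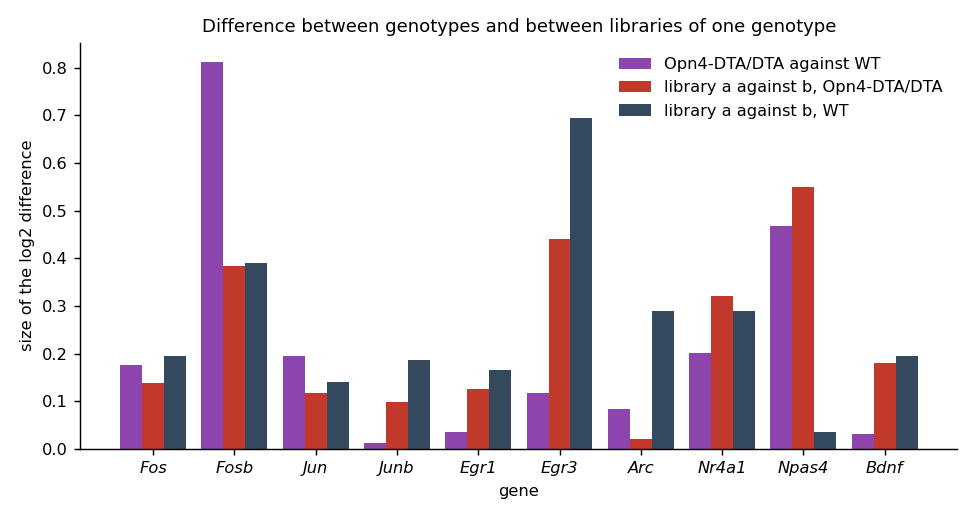
Size of the log2 difference for each gene (y axis): between genotypes, between the libraries of Opn4-DTA/DTA and between those of WT. The bar between genotypes is the tallest of its gene for Fosb and Jun and is exceeded by a bar within a genotype for the other 8 genes.

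Summed over the 9 immediate early genes, the libraries held 5987 and 6157 normalized counts in Opn4-DTA/DTA, against 6519 and 6774 in WT, a log2 ratio of the means of -0.13. Jun made up 71.1% of that sum. Without Jun, a choice made after its share was seen, the remaining 8 genes summed to 1945 and 1772 in Opn4-DTA/DTA, against 1929 and 1711 in WT. The groups then overlapped, and the log2 ratio was 0.03.

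Per kilobase of exon, which is needed to set genes beside each other, Jun was highest with a mean over all libraries of 1418 normalized counts per kb. Junb at 231, Egr1 at 226 and Nr4a1 at 182 normalized counts per kb followed, and neighbours among these overlapped between libraries. Within each library, however, Egr1 lay above Nr4a1. Fos came next at 81.8 normalized counts per kb, ranging from 71.6 to 91.0, apart from Nr4a1 above it and from Bdnf below it. Bdnf stood at 40.3 normalized counts per kb of all its alternative exons together, which understates the level of a transcript that uses few of them. Arc at 12.6, Fosb at 8.33, Egr3 at 7.07 and Npas4 at 6.94 normalized counts per kb formed the low end, where each overlapped with its neighbour between libraries. Arc nevertheless lay above Fosb within each library. Exon lengths were those of protein-coding GENCODE M21 transcripts within the authors' gene limits.

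The 5 genes whose level over the 4 libraries was most like that of Fos were Gnb1l, Slc35b3, Rab13, Hes1 and Sgk3. Likeness was the Euclidean distance of log2 values centred over the libraries, among 12442 genes whose mean reached 100 normalized counts, and the distances of these genes ran from 0.018 to 0.034. Hes1, a transcriptional repressor downstream of Notch, had 764 and 691 normalized counts in Opn4-DTA/DTA, against 680 and 609 in WT. Among the other members, Nr4a1 was the nearest to Fos at a distance of 0.15, with 575 of those genes nearer. Fosb was the farthest at 1.09, with 12413 genes nearer, but its mean of 31.5 normalized counts was below the limit set for those genes. Counting error is wide at that level. Only 4 libraries enter these distances, so they describe these libraries.

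Among further genes of the activity response, 109 tested in 8 lists, limma called 0. At an unadjusted p under 0.05 limma had 1 of them (0.917%, beside 1.66% of all genes tested), Dusp14, and limma voom had the same gene and also called 0 after adjustment. The authors' deposited table likewise calls 0 of the 109, and 5 of them (4.59%, beside 2.2% of all genes) have an unadjusted p under 0.05 there, Ier5, Ctgf, Dusp14, Spry2 and Hspa5. Of the 109 genes, 62 had a log2 fold change above 0 and 47 below 0, with a median of 0.02 and a range from -0.70 to 0.40. The groups did not overlap for 13 genes in the higher and 16 in the lower direction, which is 26.6% beside 23.5% of all genes tested.

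Among the other AP-1 and ATF factors, 5 of 8 listed genes were tested, 2 with a log2 fold change above 0 and 3 below (median -0.02). Jund, the JUN relative that is made constitutively, stood at 4632 and 4380 normalized counts in Opn4-DTA/DTA, against 5536 and 4042 in WT. Maff, a small MAF factor, had 30.6 and 35.8 in Opn4-DTA/DTA, against 38.3 and 23.0 in WT. Of the other EGR and NR4A factors and their NAB co-repressors, 5 of 6 were tested (median -0.01). Nr4a2, a nuclear receptor close to Nr4a1, had 587 and 608 normalized counts in Opn4-DTA/DTA, against 497 and 552 in WT, without overlap (log2 fold change 0.19 ± 0.13, SE; adjusted p = 0.9997 by limma). Nab1 had 1557 and 1580 in Opn4-DTA/DTA, against 1509 and 1439 in WT.

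Other primary response genes, 21 of 21 tested, were balanced, with 10 above 0 and 11 below (median -0.05). Ctgf, which encodes a secreted matrix protein, had 626 and 643 normalized counts in Opn4-DTA/DTA, against 567 and 450 in WT. Ier5 had 2310 and 2414 normalized counts in Opn4-DTA/DTA, against 2025 and 2069 in WT. Neither overlapped between the groups, and neither passed (limma adjusted p = 0.9997 for each). Trib1, a pseudokinase gene and the most abundant of the list, ranged widely within both genotypes, at 14409 and 11956 in Opn4-DTA/DTA and 17605 and 12199 in WT.

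Feedback inhibitors, which switch the response off, among other means by removing phosphate from MAP kinases or by degrading the transcripts, had 6 of 13 genes above 0 and 7 below (median -0.01). The lowest p of all 8 lists belonged to Dusp14, a dual-specificity phosphatase gene. It had 367 and 359 normalized counts in Opn4-DTA/DTA, against 470 and 458 in WT, a log2 fold change of -0.35 ± 0.13 (SE; adjusted p = 0.9997 by limma). The libraries of each genotype were close to each other, and the groups lay apart. Spry2, an inhibitor of receptor tyrosine kinase signalling, stood at 1971 and 2030 in Opn4-DTA/DTA, against 2144 and 2689 in WT. Zfp36l2, the most abundant of the list and a gene for an RNA-destabilizing protein, overlapped at 2505 and 2543 in Opn4-DTA/DTA and 2331 and 2843 in WT.

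Synaptic and secreted late response genes had 14 of 19 tested genes above 0 and 5 below, with a median log2 fold change of 0.05. Arl4d stood at 613 and 662 normalized counts in Opn4-DTA/DTA, against 752 and 728 in WT. It lay lower without overlap, and 1 other gene of the list lay higher without overlap. Over all genes tested, 12.3% lay lower and 11.2% lay higher without overlap. Nptx2, a secreted pentraxin that clusters AMPA receptors, had 1538 and 1600 normalized counts in Opn4-DTA/DTA, against 1568 and 1198 in WT. Syt4, an activity-regulated synaptotagmin, overlapped as well, at 7929 and 7384 in Opn4-DTA/DTA and 7513 and 6711 in WT.

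The receptor gene of BDNF did not pass either, with overlapping groups. Ntrk2, which encodes TrkB, had 2755 and 2572 normalized counts in Opn4-DTA/DTA, against 2677 and 2276 in WT (log2 fold change 0.11, 95% interval -0.15 to 0.37). Sort1, which encodes sortilin and takes part in BDNF sorting, had 9379 and 8723 in Opn4-DTA/DTA, against 9592 and 9657 in WT. Of 11 listed neurotrophin and receptor genes, 10 were in the table and 6 were tested, 4 above 0 and 2 below.

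Signalling proteins and transcription factors upstream of the response had 15 of 26 genes above 0 and 11 below (median 0.02). Camk2a, a subunit of the calcium-dependent kinase of synapses, had 596 and 563 normalized counts in Opn4-DTA/DTA, against 585 and 406 in WT. Crebbp, the co-activator of CREB, had 2958 and 2760 in Opn4-DTA/DTA, against 2958 and 3430 in WT. Adcy1, the calcium-stimulated adenylyl cyclase and the most abundant of the list, had 17410 and 16436 in Opn4-DTA/DTA, against 15703 and 16300 in WT.

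**Figure D4:**
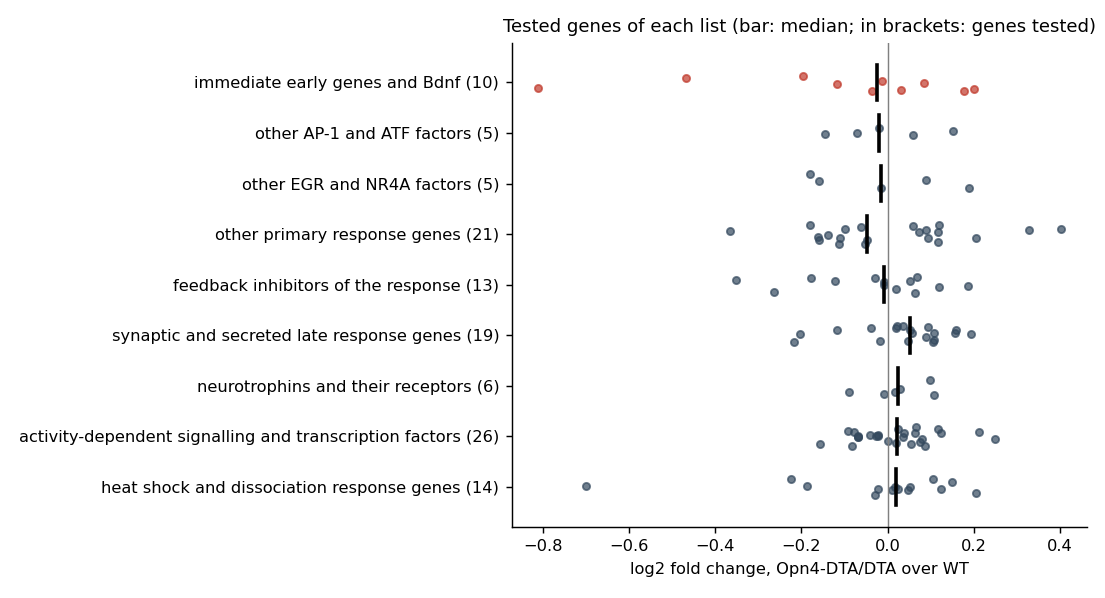
Log2 fold change of Opn4-DTA/DTA over WT (x axis) for the tested genes of the 10 members and of each of 8 further lists (rows), with the median of each row as a black bar. The medians run from -0.05 for other primary response genes to 0.052 for synaptic and secreted late response genes, and Fosb at -0.81 is the lowest point shown.

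Heat shock and dissociation response genes, some of which are induced by handling of tissue, had 9 of 14 above 0 and 5 below (median 0.02). Hspa5, the chaperone of the endoplasmic reticulum, had 10103 and 10821 normalized counts in Opn4-DTA/DTA, against 11555 and 12913 in WT. Ddit3 had 744 and 789 in Opn4-DTA/DTA, against 897 and 848 in WT, and Hsp90ab1 had 41980 and 38276 in Opn4-DTA/DTA, against 42731 and 37084 in WT. Over all genes tested, 12.3% lay lower and 11.2% lay higher without overlap. Of the 14 genes here, Hspa5 and Ddit3 lay lower in Opn4-DTA/DTA without overlap, and 2 other genes lay higher without overlap. These were Hspa1b, an inducible chaperone gene with a near-identical copy, at 188 and 185 in Opn4-DTA/DTA, against 171 and 153 in WT, and Dnajb1, at 2269 and 2183 in Opn4-DTA/DTA, against 2054 and 2029 in WT. Both were named after their values were seen.

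Marker sums of several cell types differed between the groups without overlap, and their part in the values of Fos, Fosb, Jun and Npas4 was not tested. Of all single genes tested, 23.5% did not overlap either. Lower in Opn4-DTA/DTA was the sum of 7 bipolar markers, at 35471 and 38406 normalized counts in Opn4-DTA/DTA, against 40091 and 45242 in WT, with 7 of 7 genes below 0. The sum of 8 Muller glia markers was also lower, at 68509 and 70050 in Opn4-DTA/DTA, against 73192 and 71497 in WT, with 6 of 8 below 0. Rod and cone markers had 8 of 9 genes below 0, and their sum overlapped narrowly, at 208567 and 212771 in Opn4-DTA/DTA, against 240255 and 212027 in WT. Higher in Opn4-DTA/DTA was the sum of 8 amacrine markers, at 44822 and 41426 in Opn4-DTA/DTA, against 40890 and 40040 in WT. The sums of 3 lens markers, at 291 and 97.2 in Opn4-DTA/DTA, against 90.5 and 84.2 in WT, and of 2 red blood cell markers, at 1387 and 1424 in Opn4-DTA/DTA, against 1164 and 929 in WT, were higher too. Photosensitive ganglion cell markers other than Opn4 had 3 of 3 genes below 0 and an overlapping sum, at 1156 and 1143 in Opn4-DTA/DTA, against 1636 and 1102 in WT. The groups also overlapped in the sum of 9 ganglion cell markers, at 54900 and 55553 in Opn4-DTA/DTA, against 65971 and 44276 in WT, and in that of 9 pigment epithelium markers, at 7415 and 5831 in Opn4-DTA/DTA, against 12449 and 5468 in WT. Microglia, vessel and astrocyte sums overlapped as well.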

How the data were processed

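Retinal RNA of 2 Opn4-DTA/DTA and 2 WT samples was measured by sequencing of directional poly(A) libraries, per the labels' protocols. Per the submitters' processing notes, FastQC, STAR, HTSeq, DESeq2 and mm10 were used; the notes list no versions. Per the file headers and values, the authors deposited for each group a signal, the mean of gene counts divided by size factors, and a log2 fold change that lies closer to 0 than the ratio of the means. A p-value, its adjusted form and the test statistic, a score, were deposited too. An emptied line is not analysed here.

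Each mean above 0 was solved for the 1 pair of whole counts that fits it within a relative tolerance of 3e-13 (18327 means in Opn4-DTA/DTA, 17757 in WT), and the solver was tested on simulated pairs. Libraries of one group differed beyond counting noise, with a chi-square per degree of freedom of 21.0 in Opn4-DTA/DTA and 29.3 in WT. All genes whose mean reached 10 normalized counts were fitted with limma 3.58.1 (R 4.3.3) on log2(normalized count + 1) with a variance trend and no covariates. P-values were adjusted by Benjamini-Hochberg over 15003 genes. This fold change understates the change of low genes, and the fit was tested on simulated counts. Alternatives were limma voom, scaling by library totals, no filter, a pseudocount of 5 and leaving out each library. Poisson and binomial intervals cover counting error only. All members were named. In each further list, the 2 genes with the lowest p and the gene with the highest mean were named. Members and lists were chosen with earlier results of these data known. Some genes of the marker lists are not reported here, and marker sums leave them out.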

Additional observations from a re-analysis of the deposited data

How the results depend on the processing

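No immediate early gene passed under any alternative run, and neither did Bdnf. Of 40 log2 fold changes with all libraries, 39 kept their direction, and that of Junb turned to 0.017 with scaling by library totals, which moved the median of all genes by under 0.1. With a library left out, Fos (0.08 to 0.27), Nr4a1 (0.04 to 0.36), Fosb (-1.01 to -0.62), Jun (-0.27 to -0.12) and Npas4 (-0.74 to -0.19) kept their direction. Arc (-0.060 to 0.23), Bdnf (-0.065 to 0.13), Egr1 (-0.12 to 0.048), Egr3 (-0.47 to 0.23) and Junb (-0.11 to 0.082) did not. The lowest limma adjusted p was 0.0894, for Jun without WT library a, where Fosb had 0.131. The lone WT library is then assumed to vary like the other group. With a library left out, the median of the 10 genes ranged from -0.085 (without WT library b) to -0.0061; scaling by library totals turned its sign, to 0.0049. The log2 ratio of the sum was 0.030 without Jun, which holds most of it. Genes past the threshold numbered 10 without Opn4-DTA/DTA library a, 19 without library b, 306 without library a of WT and 237 without its library b, against 3 with all; the cause was not tested. No paired analysis was possible because the recovered libraries carry no replicate number. Depth limits Egr3, Npas4, Fosb and Arc, with 7 to 72 counts per library.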

Other observations

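Fosb and Fos are transcribed in response to like signals, and their ratio within a library does not depend on scaling. Fosb made up 11.9% of the summed counts of Fosb and Fos in Opn4-DTA/DTA library a (exact binomial 95% interval 8.85% to 15.5%) and 10.1% in library b (6.20% to 15.3%). In WT library a the share was 16.9% (11.7% to 23.2%), and in WT library b it was 23.4% (16.4% to 31.7%). The groups did not overlap in this share, but that adds nothing to the values of the genes. It follows from Fosb lying lower and Fos lying higher in Opn4-DTA/DTA, each without overlap. The ratio was chosen after the values of both genes were seen, so it was not tested.

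Egr4 and Hmox1 differed more between the WT libraries than between genotypes, and both were picked for that spread. Egr4, an EGR factor of neurons, had 9.28 and 13.3 normalized counts in Opn4-DTA/DTA, against 25.5 and 6.12 in WT. Its whole counts were 17 and 13 in Opn4-DTA/DTA and 22 and 4 in WT, a level at which counting error is wide. Hmox1, the inducible heme oxygenase of the oxidative stress response, had 236 and 213 normalized counts in Opn4-DTA/DTA, against 638 and 208 in WT.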
